A study of Mus musculus with 2 samples.

Results

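The cells described here are Acta2-low collagen cells of mouse pancreatic tumors, fibroblasts that carried collagen transcripts but almost no smooth muscle actin. They were chosen from single-cell UMI counts, where a UMI (unique molecular identifier) marks 1 captured transcript. A cell was kept with 1000 or more UMIs, 200 to 5000 genes and up to 8% mitochondrial UMIs. A kept cell was a collagen cell when Col1a1, Col1a2 and Col3a1 made up at least 0.2% of its UMIs, when it held 2 or more UMIs of Dcn, Lum, Pdgfra and Pdgfrb, and when it held 0 UMIs of Ptprc, Pecam1, Epcam and Adipoq. It was called Acta2-low when Acta2 and Tagln together stayed under 0.05% of its UMIs, and Acta2-high otherwise. This gave 269 Acta2-low cells of 16523 kept cells, 82 of 7337 in the library labelled FLOX and 187 of 9186 in the library labelled MCT1-KO.

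The study asked what loss of the lactate transporter MCT1 (gene Slc16a1) in pancreatic stellate cells (PSCs) does to the tumor microenvironment (TME). KPC cells, a mouse pancreatic cancer line, were injected into the pancreas of flox mice, which carry MCT1 fl/fl, or of PSCs-MCT1-/- mice, in which tamoxifen activates CreERT2 from the Col1a2 promoter. Whole tumors were dissociated without sorting, and 1 library was made per genotype. Mice of the model received tamoxifen or corn oil before the tumor cells. Which of them the flox mouse received, and the number of mice behind each library, are not given in the sources used here.

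The Col1a2 promoter is known to be active in fibroblasts of many kinds, and in which cells of these tumors the deletion took place was not measured here. Genotype, mouse, tumor and library cannot be told apart with 1 library per group. No test between groups was therefore made, and all intervals below are exact 95% intervals of counting error only. Levels are UMIs of a gene summed over the cells of a class, divided by all UMIs of that class and scaled to counts per 1e6 UMIs (CPM).

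Fibroblasts of pancreatic cancer take on several states. Myofibroblastic cells contract, lie close to tumor cells and are driven by TGF-beta, whereas inflammatory fibroblasts, driven by interleukin-1 and NF-kB signalling, secrete cytokines, chemokines and complement. Stellate cells are the vitamin A storing mesenchymal cells of the normal pancreas and a source of both states. Cxcl13, a chemokine that attracts B cells and follicular helper T cells through Cxcr5, is a product of the stroma of lymphoid tissue.

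The Acta2-low cells of the FLOX library together held 835386 UMIs, and a typical cell had 9747.5 UMIs and 2902 genes (medians). Those of the MCT1-KO library held 1565193, with medians per cell of 7897 UMIs and 2547 genes. The 79 and 53 Acta2-high cells held 869301 and 505484 UMIs. The whole libraries held 177334432 and 151118092 UMIs. The libraries shared 37 barcodes among their kept cells. Of the Acta2-low barcodes, 2 of the MCT1-KO library were also kept in the FLOX library and 0 the other way.

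The label was checked against markers. Collagen and fibroblast genes chose the cells and are given as a description. Col1a1 stood at 4566 CPM in the FLOX library and 3534 CPM in the MCT1-KO library, Dcn at 5382 and 8382 CPM, and Pdgfra at 277 and 173 CPM. Among other kept cells Col1a1 reached 105 and 64.9 CPM. Sfrp1, a secreted Wnt inhibitor given as a marker of these cells, was far above other kept cells but lower than in Acta2-high cells. It stood at 1562 against 3232 CPM in the FLOX library and at 1074 against 3173 CPM in the MCT1-KO library. Sfrp1 therefore does not set these cells apart from Acta2-high cells. The defining genes of quiescent stellate cells were near absent. Gfap had 0 UMIs in both libraries, and Lrat had 0 UMIs in the FLOX library and 0.639 CPM in the MCT1-KO library. The cells are called by their rule here, Acta2-low, and not stellate cells.

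Markers of other cell types were read in the same sums. Summed over 10 macrophage genes, the Acta2-low cells stood at 736 and 509 CPM, against 8577 and 4466 CPM in other kept cells, and 0 of the 10 genes were at 0. At least 1 UMI of Lyz2, the C1q genes or Cd74 was present in 79 of 82 and 164 of 187 cells. T and NK genes summed to 14.4 and 7.67 CPM, with 2 of 6 genes at 0 in each library. Ductal and KPC genes without Epcam summed to 871 and 581 CPM, against 3198 and 3175 CPM in other kept cells. Mesothelial genes, Wt1 included, summed to 418 and 311 CPM, against 266 and 184 CPM in Acta2-high cells and 24.3 and 51.2 CPM in other kept cells. B and plasma cell genes summed to 15.6 and 104 CPM, against 232 and 288 CPM, and Schwann cell genes to 3.59 and 0.639 CPM. Endothelial genes summed to 80.2 and 80.5 CPM, against 70.5 and 48.8 CPM in other kept cells, with ratios of 1.14 (0.880 to 1.45) and 1.65 (1.37 to 1.97). Kdr, a receptor of vascular growth factor, stood out among them at 35.9 and 19.2 CPM, against 4.26 and 2.09 CPM. Xist had 0 UMIs in both libraries, while transcripts of Y-linked genes were found in 59 of 82 and 146 of 187 cells, and the mice were male. Barcodes of 10 to 100 UMIs, which hold free RNA rather than cells, gave 7290 and 4637 CPM for the macrophage genes.

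Slc16a1 (ENSMUSG00000032902, chr3:104638668-104658462, plus strand, GRCm38), the targeted gene, was read first. In Acta2-low cells it had 34 UMIs or 40.7 CPM (28.2 to 56.9) in the FLOX library and 62 UMIs or 39.6 CPM (30.4 to 50.8) in the MCT1-KO library. The ratio of MCT1-KO to FLOX was 0.973 (0.631 to 1.53). At least 1 UMI was found in 22 and 53 cells. In Acta2-high cells the levels were 15 and 23.7 CPM, and in other kept cells 26.1 and 38.1 CPM. Slc16a1 transcript was therefore not clearly lower in Acta2-low cells of the library labelled MCT1-KO, with an interval that reached down to 0.631. The paper reports lower MCT1 in PSCs of PSCs-MCT1-/- mice in its single-cell data. It reports the same by Western blot and PCR of isolated primary PSCs, and by staining of MCT1 with Collagen I in pancreatic sections. Western blot and staining read protein, not transcript. UMIs from outside the deleted part of the gene would not show a deletion, and the deleted exons are not given in the sources used here.

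The share of Acta2-low cells among kept cells was 1.12% (0.890 to 1.39) in FLOX and 2.04% (1.76 to 2.35) in MCT1-KO. At a collagen share of at least 0.5% they lay closer, at 0.913% and 1.19%. Acta2-high cells made up 1.08% and 0.577%. Of all collagen cells, 50.9% (42.9 to 58.9; 82 of 161) were Acta2-low in the FLOX library and 77.9% (72.1 to 83.0; 187 of 240) in the MCT1-KO library. The share was higher in the MCT1-KO library at each depth. Below 5000 UMIs the share was 50% and 73.1%, from 5000 to under 10000 UMIs 63.0% and 87.6%, and from 10000 UMIs upward 47.6% and 68.7%. With 1 library per genotype these shares have no replicate spread.

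The limit on Acta2 and Tagln cut a continuous range. No UMI of either gene was found in 30 of 82 and 113 of 187 Acta2-low cells. The cells just inside the limit held 0.0481% and 0.0492%, and those just outside 0.0520% and 0.0514%. The median collagen share of the Acta2-low cells was 1.13% in the FLOX library and 0.633% in the MCT1-KO library, against 1.14% and 1.48% in Acta2-high cells.

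The comparison of Acta2-low with Acta2-high cells asked which programmes go with a low actin level. It is a description, because Acta2 and Tagln chose both classes. The inflammatory fibroblast list (16 genes) was higher in Acta2-low cells of both libraries, and the myofibroblast list (17 genes, without Acta2 and Tagln) was lower in both. Summed complement genes were higher in both libraries as well, and summed matrix proteins lower. The Wnt and BMP modulators summed to ratios of 0.593 and 0.419, but without Sfrp1, their most abundant gene, to 1.08 (0.964 to 1.20) and 0.624 (0.566 to 0.688), so that the FLOX value rested on Sfrp1.

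The inflammatory list stood at 10738 CPM (10516 to 10962) in Acta2-low against 4744 CPM in Acta2-high cells of the FLOX library, a ratio of 2.26 (2.18 to 2.35). In the MCT1-KO library it stood at 12285 CPM (12112 to 12460) against 5335 CPM, a ratio of 2.30 (2.21 to 2.40). Without C3, the ratios were 1.85 and 1.78. The cells varied widely. Between the lower and upper quartile the Acta2-low cells spanned 3096 to 18122 CPM in the FLOX library, around a median of 6650, and 4484 to 21282 CPM in the MCT1-KO library, around a median of 11082. The medians of Acta2-high cells were 2820 and 4089 CPM.

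Of the 16 genes, 6 were 2-fold or more higher in Acta2-low cells of both libraries and 0 were 2-fold or more lower. Of 7219 genes with 50 or more UMIs, 2.02% were 2-fold or more higher in both libraries and 0.97% lower. Since the contrast was made by the rule, the count is not read against that share. The median ratio over the list was 2.59 and 2.21, and over all genes 1.03 in both libraries. The 6 genes were Cxcl12, Clec3b, Svep1, C3, C4b and Efemp1.

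Complement C3 (ENSMUSG00000024164, chr17:57203970-57228136, minus strand, GRCm38), the component on which all complement pathways meet, stood at 3950 CPM in Acta2-low and 1072 CPM in Acta2-high cells of the FLOX library. In the MCT1-KO library the levels were 4665 and 1060 CPM. The ratios were 3.68 (3.43 to 3.97) and 4.4 (4.03 to 4.81). C3 was found in 93.9% and 96.8% of Acta2-low cells. With each cell thinned to 1000 UMIs the shares were 68.3% and 79.1%, against 4.69% and 3.48% of T cells and 12.2% and 8.37% of macrophages treated alike. The T cells had a median of 3719.5 and 2954 UMIs before thinning and the macrophages of 6690 and 5331.5.

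Other members of complement were also higher in Acta2-low cells. C4b, of the classical pathway, was at 673 and 1041 CPM, with ratios of 2.63 and 3.15. C1ra, a protease of the first component, had ratios of 2.05 and 2.70. C7, of the membrane attack complex, was at 59.9 and 255 CPM, against 1.15 CPM (1 UMI) and 73.2 CPM in Acta2-high cells. Summed over 9 complement genes, the ratios were 2.12 (2.03 to 2.21) and 2.18 (2.09 to 2.28). Factor B (Cfb) went in opposite directions, with ratios of 1.64 and 0.748.

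Clec3b, which encodes the plasminogen-binding protein tetranectin, was at 322 and 240 CPM in Acta2-low cells, against 28.8 and 9.89 CPM in Acta2-high cells. The MCT1-KO ratio of 24.2 was 111 without the highest cell of each class. Acta2-high cells of that library held only 5 Clec3b UMIs, so that the size of both ratios is uncertain. Svep1, a matrix adhesion protein, was at 375 and 337 against 104 and 89.0 CPM. Cxcl12, the ligand of Cxcr4 that keeps T cells within stroma, was at 196 and 418 against 54.1 and 91.0 CPM. The levels of each of these genes were higher in Acta2-low cells of both libraries with intervals of the ratio above 1. Dpt, a matrix protein of universal fibroblasts, had ratios of 1.77 and 3.51.

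The cytokine Il6 separated the classes in the FLOX library, at 684 against 189 CPM (ratio 3.62, 3.04 to 4.34), and less in the MCT1-KO library, at 383 against 303 CPM (ratio 1.27, 1.06 to 1.52). The monocyte chemokine Ccl7 had ratios of 1.23 and 1.25. Ccl2, also on the list, was lower in Acta2-low cells of the FLOX library (ratio 0.872) and higher in those of the MCT1-KO library (ratio 1.26). Lif, a cytokine of the same family as Il6, was at 29.9 and 19.8 CPM, below the 44.3 and 64.9 CPM of other kept cells. Its ratios over Acta2-high cells were 0.685 (0.396 to 1.16) and 0.589 (0.316 to 1.13). Of the cytokines and chemokines on the list, Cxcl12 alone was 2-fold or more higher in both libraries.

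**Figure D1:**
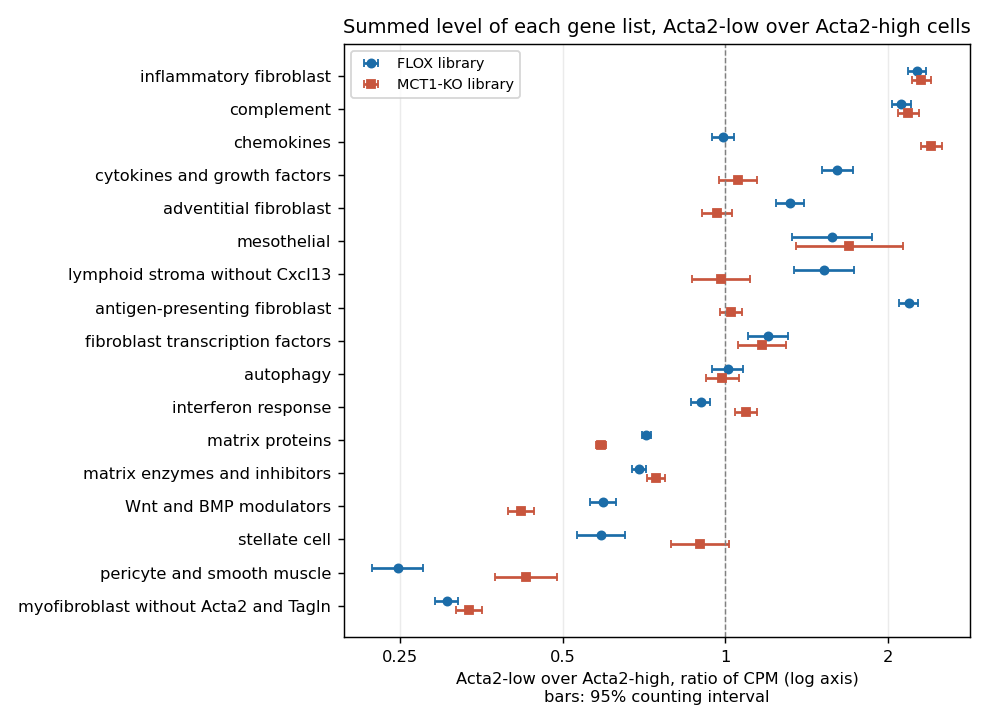
Ratio of the summed CPM of each gene list in Acta2-low over Acta2-high cells (horizontal log axis), for the FLOX library (circles) and the MCT1-KO library (squares), with 95% counting intervals. The inflammatory fibroblast list sits at 2.26 and 2.30 and the myofibroblast list at 0.305 and 0.335.

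The myofibroblast list stood at 2541 CPM (2434 to 2652) in Acta2-low against 8341 CPM in Acta2-high cells of the FLOX library, a ratio of 0.305 (0.290 to 0.320). In the MCT1-KO library it stood at 1558 CPM (1497 to 1621) against 4651 CPM, a ratio of 0.335 (0.316 to 0.355). Of its 15 genes with 50 or more UMIs, 8 were 2-fold or more lower in both libraries and 0 higher, beside 0.97% and 2.02% of all genes, from which nothing is read. These were the contractile genes Myl9, Tpm2, Cnn1, Cnn2 and Actg2, and Cthrc1, Igfbp3 and Col8a1. Myl9, the regulatory light chain of smooth muscle myosin, was at 31.1 and 15.3 CPM in Acta2-low cells against 466 and 192 CPM in Acta2-high cells. Cthrc1, a secreted protein of matrix-producing fibroblasts, was at 21.5 and 17.3 against 122 and 137 CPM.

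The contractile difference of the FLOX library leaned on 7 Acta2-high cells in which Acta2 and Tagln made up 1% or more of UMIs. Without them the ratio of the myofibroblast list was 0.450 in that library. Actg2, the enteric smooth muscle actin, was at 911 CPM in Acta2-high cells of the FLOX library, and 84.5% of those UMIs came from 1 cell. Rgs5, a pericyte marker, had 44.3 CPM in Acta2-low cells of the FLOX library, of which 91.9% came from 1 cell, and 0 UMIs in the MCT1-KO library.

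Summed over its genes, the inflammatory list was lower at each rising step of the Acta2 and Tagln share. In the FLOX library the inflammatory list was at 14590 CPM in cells with none (30 cells), 9556 CPM above 0 and under 0.05% (52 cells), 5414 CPM from 0.05 to 0.2% (40 cells) and 4619 CPM from 0.2 to 1% (32 cells). In the MCT1-KO library the same steps gave 14630 CPM (113 cells), 9779 CPM (74 cells), 5934 CPM (42 cells) and 3353 CPM (11 cells). The last of these rests on few cells. C3 gave 1290 of the 2860 UMIs of the list in the first FLOX step. C3 and Clec3b also fell at each step in both libraries, but Ccl2, of the same list, did not. Ccl2 was at 112, 862, 758 and 896 CPM in the FLOX library and at 1197, 1366, 1223 and 324 CPM in the MCT1-KO library. Other genes of the list were not read by step. The depth of these steps differed, with median UMIs of 4569, 12521.5, 6937 and 14402.5 in the FLOX library and of 6713, 9577.5, 9562 and 10193 in the MCT1-KO library; its part in the result was not tested. Sfrp1 did not follow the steps evenly. In the FLOX library it was at 2122, 1390, 2817 and 3644 CPM in the same order and at 2951 CPM in the 7 cells at 1% or more, and in the MCT1-KO library at 1002, 1151, 2846 and 4257 CPM.

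**Figure D2:**
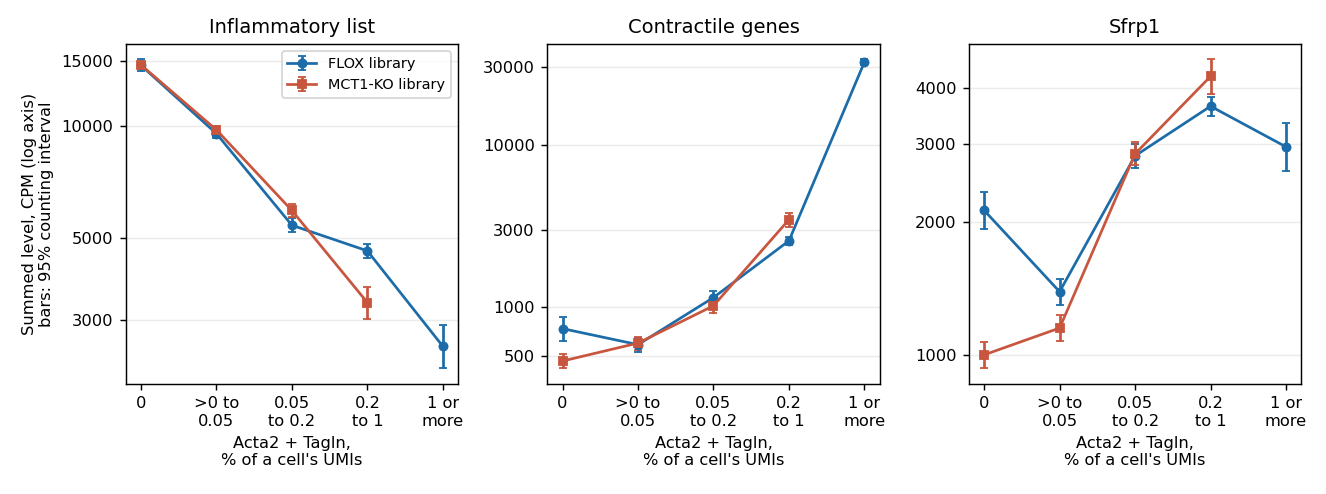
Summed CPM (vertical log axes, 95% counting intervals) of the inflammatory list, of 6 contractile genes and of Sfrp1, over collagen cells grouped by the percent of UMIs from Acta2 and Tagln, in the FLOX library (circles) and the MCT1-KO library (squares). The inflammatory list falls from 14590 to 4619 CPM and from 14630 to 3353 CPM between the first step and the step of 0.2 to 1%, while Sfrp1 is higher in that step than in the first.

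Genes were also ranked by size over all genes, list members included, the smaller ratio of both libraries deciding the rank. The 10 leading genes of the Acta2-low cells were Cxcl13, Clec3b, Adh1, Col6a5, Lvrn, Crocc2, Fmo2, Ntrk2, Cd34 and Ptx3. Adh1, an alcohol dehydrogenase that also oxidises retinol, was at 56.3 and 146 CPM against 4.60 and 13.8 CPM in Acta2-high cells. Cd34, a surface protein of adventitial fibroblasts, was at 99.4 and 123 against 23.0 and 27.7 CPM. Ptx3, a soluble pattern recognition protein, was at 203 and 125 against 13.8 and 29.7 CPM. On the other side stood Actg2, Myh11, Cnn1, Myl9, Cyp26a1, Lmod1, Cthrc1, Pdlim3, Nebl and AA467197. Cyp26a1, which breaks down retinoic acid, was at 2.39 and 1.92 CPM in Acta2-low cells and at 51.8 and 21.8 CPM in Acta2-high cells.

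Genes of adventitial fibroblasts were higher in part. Pi16, a marker of progenitor-like fibroblasts around vessels, was at 194 and 234 CPM against 89.7 and 95 CPM. Of 9 such genes with 50 or more UMIs, 3 were 2-fold or more higher in both libraries (Pi16, Cd34 and Cd55) and 0 lower, beside 2.02% and 0.97% of all genes. The summed list had ratios of 1.32 (1.24 to 1.40) and 0.965 (0.905 to 1.03). At least 2 UMIs of Pi16, Cd34 and Dpp4 together were found in 26 of 82 and 76 of 187 Acta2-low cells. The alarmin Il33 was at 235 and 192 CPM against 64.4 and 91.0 CPM. Wt1, a transcription factor of the mesothelium, was found in 61.0% (49.6 to 71.6) and 64.2% (56.8 to 71.0) of Acta2-low cells. With cells thinned to 1000 UMIs, Wt1 remained in 20.7% and 14.4%, against 0.469% and 0% of T cells. Wt1 was not particular to Acta2-low cells. In collagen cells with Acta2 and Tagln at 0.05 to 0.2% it stood at 250 and 173 CPM. The mesothelial list stood at 266 and 184 CPM in Acta2-high cells, against 418 and 311 CPM in Acta2-low cells. Of all Acta2-low cells, 7 of 82 (8.54%) and 13 of 187 (6.95%) held 2 or more UMIs of the mesothelial surface genes Upk3b, Upk1b, Lrrn4 and Msln. At least 2 UMIs of class II genes, which present antigen, were found in 74 of 82 and 129 of 187 cells. Macrophages express the same genes, and the macrophage UMIs given above stand beside this count; their part in it was not tested.

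Against other kept cells, 14 of the 16 inflammatory genes were 2-fold or more higher in both libraries and 0 lower. Of 5664 genes with 50 or more UMIs, 14.5% were 2-fold or more higher in both libraries and 3.8% lower. The median over all genes was shifted by -0.04 on the log2 scale in the FLOX library and by -0.12 in the MCT1-KO library. The exceptions among the 16 were Lif and Efemp1. The 15 leading genes were Sfrp4, Vtn, Smoc2, Gdf10, Col4a6, Cilp, Igfbp5, Srpx, Clec3b, Svep1, Dpt, C7, Gfpt2, Cadm3 and 4930578G10Rik. Smoc2, a matricellular calcium-binding protein, was at 85.0 and 208 CPM, against 0.188 and 1.10 CPM in other kept cells. Gfpt2, an enzyme of hexosamine synthesis, was at 358 and 381 against 2.02 and 2.83 CPM. All 9 complement genes were 2-fold or more higher than in other kept cells. For Igfbp5, 66.3% and 62.5% of the UMIs came from 1 cell of each library.

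The comparison of the libraries within Acta2-low cells asked what differed between the libraries labelled MCT1-KO and FLOX. Slc16a1 itself was not clearly lower in the former. Cxcl13 differed most among the chemokines. The summed cytokine and growth factor genes and the summed matrix proteins were lower in the library labelled MCT1-KO. The inflammatory list as a whole was close, at 10738 and 12285 CPM, a ratio of 1.14 (1.12 to 1.17). That ratio was 0.926 when the collagen share had to reach 0.5%, so that its direction depended on which cells were counted. It was 0.960 among cells free of macrophage UMIs, which left only 3 FLOX and 23 MCT1-KO cells.

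Cxcl13 (ENSMUSG00000023078, chr5:95956951-95961068, plus strand, GRCm38) had 215 UMIs in the 82 Acta2-low cells of the FLOX library and 7452 UMIs in the 187 cells of the MCT1-KO library. Per UMI sequenced this was 257 CPM (224 to 294) against 4761 CPM (4654 to 4870), so that MCT1-KO stood 18.5-fold higher (16.2 to 21.3). In Acta2-high cells 3 and 43 UMIs were found. Acta2-low cells held 74.6 times (25.2 to 364) and 56.0 times (41.5 to 77.4) the level of Acta2-high cells of the same library. Cxcl13 was higher in Acta2-low than in Acta2-high cells of both libraries, and far higher in the MCT1-KO library. That difference between the libraries was not particular to Acta2-low cells. Acta2-high cells held 3 UMIs of 869301 in the FLOX library and 43 of 505484 in the MCT1-KO library. Other kept cells and free RNA also had a higher level in the MCT1-KO library.

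The UMIs came from part of the cells. At least 1 UMI was found in 16 of 82 cells (19.5%) and in 84 of 187 (44.9%), against 3 of 79 (3.8%) and 8 of 53 (15.1%) Acta2-high cells. At least 10 were found in 4 cells (4.88%, 1.34 to 12) and in 59 cells (31.6%, 25 to 38.7). The highest cell of the FLOX library held 84 UMIs and that of the MCT1-KO library 671. In the FLOX library 69.3% of the UMIs came from 2 cells, in the MCT1-KO library 17.9%. Leaving out the 2 highest cells of each library, the ratio of MCT1-KO to FLOX was 48.8. It was 9.33 at a collagen share of 0.5% and 8.13 without cells holding a macrophage UMI, which left 3 FLOX cells. Without the 2 highest cells, the ratio of Acta2-low to Acta2-high cells in the FLOX library was 23.5. Without the highest cell of each class the ratio in the MCT1-KO library was 86.3, after thinning 33.3, at 0.5% collagen 33.7 and without macrophage UMIs 39.2.

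Free RNA was read beside this. Barcodes of 10 to 100 UMIs had 2.06 CPM of Cxcl13 in the FLOX library and 52.7 CPM in the MCT1-KO library. With cells thinned to 1000 UMIs, Cxcl13 was found in 6.10% and 35.8% of Acta2-low cells. In T cells it was found in 0 of 426 thinned cells of the FLOX library, which by a floor of 3 counts allows a share of cells with a UMI of up to 0.704%, and in 1.27% of the MCT1-KO library. In macrophages the shares were 0.153% and 2.17%. The share in Acta2-low cells was above that in T cells and macrophages in both libraries. Of all Cxcl13 UMIs in kept cells, 27.9% lay in Acta2-low cells of the FLOX library and 62.6% in those of the MCT1-KO library. Among other kept cells 5 and 44 held 10 or more UMIs, of which 3 and 23 carried a Ptprc UMI.

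**Figure D3:**
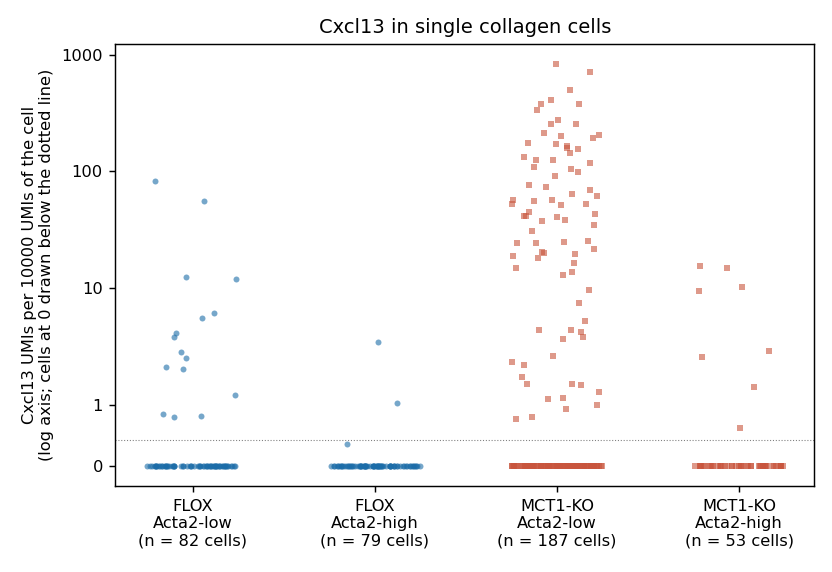
Cxcl13 UMIs per 10000 UMIs in each collagen cell (vertical log axis, 1 point per cell, cells without a UMI drawn below the dotted line) for Acta2-low and Acta2-high cells of both libraries. Cxcl13 was found in 16 of 82 Acta2-low cells of the FLOX library and in 84 of 187 of the MCT1-KO library, against 3 of 79 and 8 of 53 Acta2-high cells.

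The 59 Cxcl13-rich cells of the MCT1-KO library (10 or more UMIs) were set beside the 103 cells of that library without a Cxcl13 UMI, a grouping made after the values were seen. Cxcl13 itself was left out of the totals. The inflammatory list was at 17252 against 10103 CPM, a ratio of 1.71 (1.66 to 1.76), and the myofibroblast list at 886 against 2160 CPM, a ratio of 0.410 (0.369 to 0.455). Cxcl12 was at 894 against 201 CPM, Ccl2 at 2102 against 765 CPM and Ccl19, a chemokine of T cell zones, at 72.2 against 25.9 CPM. Matrix proteins summed to 10766 against 18502 CPM, and Col12a1 was at 15.6 against 331 CPM. Markers of other cell types differed in both directions. Macrophage genes had a ratio of 1.18 (1.02 to 1.37). Acinar enzyme genes were at 5026 against 1217 CPM, B and plasma cell genes at 285 against 17.3 CPM and cell cycle genes at 252 against 115 CPM. Endothelial genes were lower, at 48.8 against 102 CPM, a ratio of 0.477 (0.292 to 0.754), as were ductal and KPC genes, with a ratio of 0.855 (0.736 to 0.990). Neutrophil and mesothelial genes had ratios of 0.827 and 0.832, with intervals that held 1. The gene with the largest ratio was Igha, an immunoglobulin heavy chain, at 2026 against 35.7 CPM, and 95.3% of its UMIs in all Acta2-low cells of that library came from 1 cell. In the FLOX library the same split set 4 cells beside 66. There the inflammatory list had a ratio of 2.26 (2.12 to 2.41) and the myofibroblast list of 0.254 (0.178 to 0.351), while macrophage genes had 0.444 (0.261 to 0.708), ductal and KPC genes 1.91 (1.46 to 2.46), acinar genes 0.474 (0.0559 to 1.80) and cell cycle genes 0.616 (0.164 to 1.64). The marker lists thus did not go the same way in both libraries, and their part in the result was not tested. The median depth was 8165 and 6974 UMIs in the MCT1-KO library. In the FLOX library the 4 Cxcl13-rich cells were also deeper by median.

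The other genes of lymphoid stroma did not follow Cxcl13 between the libraries. Summed over 12 genes without Cxcl13, the list stood at 697 and 652 CPM, a ratio of 0.935 (0.844 to 1.04). Ccl19 had 43.1 and 43.4 CPM. Ccl21a had 0 UMIs in both libraries.

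Of 14 chemokines with 50 or more UMIs, Cxcl13 included, 3 were 2-fold or more higher in the MCT1-KO library (Cxcl1, Cxcl12 and Cxcl13) and 2 lower (Cxcl5 and Ccl8). Of 5664 genes, 3.18% were 2-fold or more higher and 4.01% lower, and the median ratio was 0.959 over all genes and 1.06 over the chemokines. The summed chemokines had a ratio of 2.50 (2.41 to 2.59), and without Cxcl13 of 1.45 (1.39 to 1.51). The neutrophil chemokine Cxcl1 was at 680 and 1445 CPM, a ratio of 2.12 (1.94 to 2.33). Cxcl12 was at 196 and 418 CPM, a ratio of 2.13 (1.79 to 2.54). The monocyte chemokine Ccl2 was at 686 and 1278 CPM, a ratio of 1.86 (1.70 to 2.05). In other kept cells the ratios of these genes were 1.19, 1.08 and 0.824. In Acta2-high cells Cxcl12 and Ccl2 were also higher in the MCT1-KO library. The summed chemokines without Cxcl13 had a ratio of 1.01 (0.955 to 1.06) in Acta2-high cells. The eosinophil chemokine Ccl11 was lower, at 205 and 107 CPM, a ratio of 0.524 (0.421 to 0.653).

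**Figure D4:**
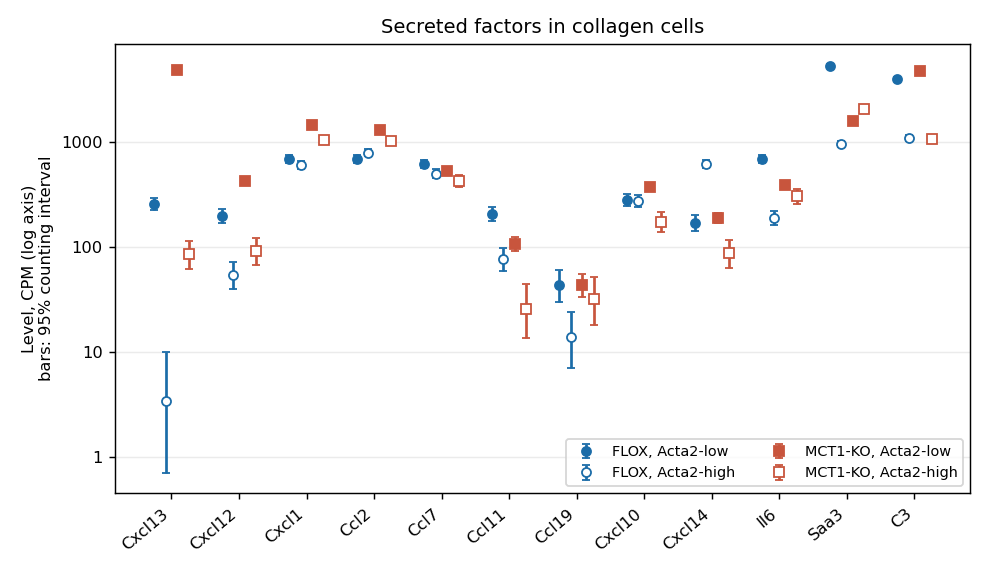
Level in CPM (vertical log axis, 95% counting intervals) of 12 secreted factors in Acta2-low (filled) and Acta2-high (open) cells of the FLOX library (circles) and the MCT1-KO library (squares). Cxcl13 in Acta2-low cells stands at 257 and 4761 CPM, and Saa3 at 5245 and 1563 CPM.

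Cytokines and growth factors were lower in the MCT1-KO library, at 2733 and 1616 CPM, a ratio of 0.591 (0.559 to 0.626) against 0.968 in other kept cells. Of 15 genes with 50 or more UMIs, 5 were 2-fold or more lower (Il11, Igf1, Fgf2, Vegfa and Ptn) and 0 higher, beside 4.01% and 3.18% of all genes. Igf1, insulin-like growth factor 1, was at 918 and 341 CPM, a ratio of 0.372 (0.332 to 0.416), beside 0.410 in other kept cells. Il6 was at 684 and 383 CPM, a ratio of 0.561 (0.499 to 0.630), against 1.57 in other kept cells. Vegfa, the main factor of vessel growth, was at 122 and 50.5 CPM. The acute phase protein Saa3 was at 5245 and 1563 CPM, a ratio of 0.298 (0.283 to 0.313), whereas in Acta2-high cells it was 2.17.

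Matrix genes were lower as a group. Summed over 26 matrix proteins the levels were 21126 and 14525 CPM, a ratio of 0.688 (0.674 to 0.701), against 0.833 in Acta2-high cells and 1.08 in other kept cells. Of the 26 genes, 9 were 2-fold or more lower (Col5a1, Col6a2, Col6a3, Col12a1, Col14a1, Col15a1, Lama4, Fn1 and Tnc) and 0 higher, beside 4.01% and 3.18% of all genes. The median ratio over the list was 0.637. Fibronectin (Fn1) was at 1381 and 668 CPM, a ratio of 0.483 (0.444 to 0.526), and Col12a1, a collagen that binds to fibril surfaces, at 503 and 181 CPM, a ratio of 0.361 (0.309 to 0.421). Decorin (Dcn), a small proteoglycan among the genes of the rule, was at 5382 and 8382 CPM. Of the enzymes and inhibitors that act on matrix, Timp3, an inhibitor of metalloproteinases, was at 2137 and 1062 CPM. Since the collagen share chose the cells, a lower median collagen share in the MCT1-KO library, 0.633% against 1.13%, stands beside these values, and its part in them was not tested.

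The Wnt and BMP modulators stood at 2353 and 1854 CPM, a ratio of 0.788 (0.744 to 0.835), and without Sfrp1 of 0.986 (0.896 to 1.09). Grem1, a BMP antagonist, was at 122 and 5.75 CPM, and without the highest cell of each library the ratio was 0.111. Fst, an activin antagonist, was at 77.8 and 171 CPM. Complement genes stood at 8252 and 9886 CPM, a ratio of 1.20 (1.16 to 1.23). C7 had a ratio of 4.26 (3.17 to 5.84).

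Autophagy and lactate handling are the processes named in the study's title. The paper followed autophagy by LC3 and p62 protein and by Vps34 lactylation, which transcript levels do not measure. Summed over 16 autophagy genes the levels were 2130 and 2154 CPM, a ratio of 1.01 (0.955 to 1.07), and of 9 genes with 50 or more UMIs 0 were 2-fold or more higher or lower, beside 3.18% and 4.01% of all genes. Lactate transport and sensing genes stood at 1058 and 836 CPM, a ratio of 0.790 (0.725 to 0.861). Of 4 of these genes with 50 or more UMIs 0 were 2-fold or more higher or lower, and their median ratio was 0.906. Slc16a3, the lactate exporter MCT4, had 22 and 16 UMIs, too few to be counted there, a ratio of CPM of 0.388 (0.191 to 0.774), against 0.292 in other kept cells. Ldha, the lactate dehydrogenase subunit A, was at 517 and 357 CPM.

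The interferon response list stood at 5292 and 4872 CPM, a ratio of 0.921 (0.887 to 0.955). Heat shock and immediate early genes stood at 13264 and 9526 CPM, a ratio of 0.718 (0.701 to 0.736). These genes were also lower in other kept cells, with a ratio of 0.577. Hsph1, a chaperone of the Hsp110 family, was at 244 and 12.1 CPM in Acta2-low cells and at 312 and 28.4 CPM in other kept cells. Genes that respond to handling thus differed between the libraries in and outside the Acta2-low cells, and their part in the results above was not tested.

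Without regard to lists, the 10 genes that led in the MCT1-KO library were Try4, Ctrb1, 2210010C04Rik, Reg2, Pnlip, Prss2, Try5, Cpa1, Zg16 and Cela3b, products of acinar cells. Summed over 10 acinar genes, the Acta2-low cells stood at 87.4 and 2450 CPM, other kept cells at 379 and 2520 CPM and barcodes of 10 to 100 UMIs at 345 and 18302 CPM. For Ctrb1, chymotrypsinogen B1, 62.7% of the UMIs of the MCT1-KO cells came from 1 cell, and the ratio of 52.7 was 22.9 without the highest cell of each library. The 10 genes that led in the FLOX library were Nrxn3, Aspn, Hsph1, Spon2, Pknox2, Ltbp2, Cyp4b1, Hspa1b, Hspa1a and Filip1. Aspn, a small matrix proteoglycan, was at 58.7 and 1.28 CPM. Ltbp2, a matrix protein related to the latent TGF-beta binding proteins, was at 67.0 and 8.94 CPM. Nrxn3 was at 99.4 CPM in the FLOX library, of which 38.6% came from 1 cell.

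**Figure D5:**
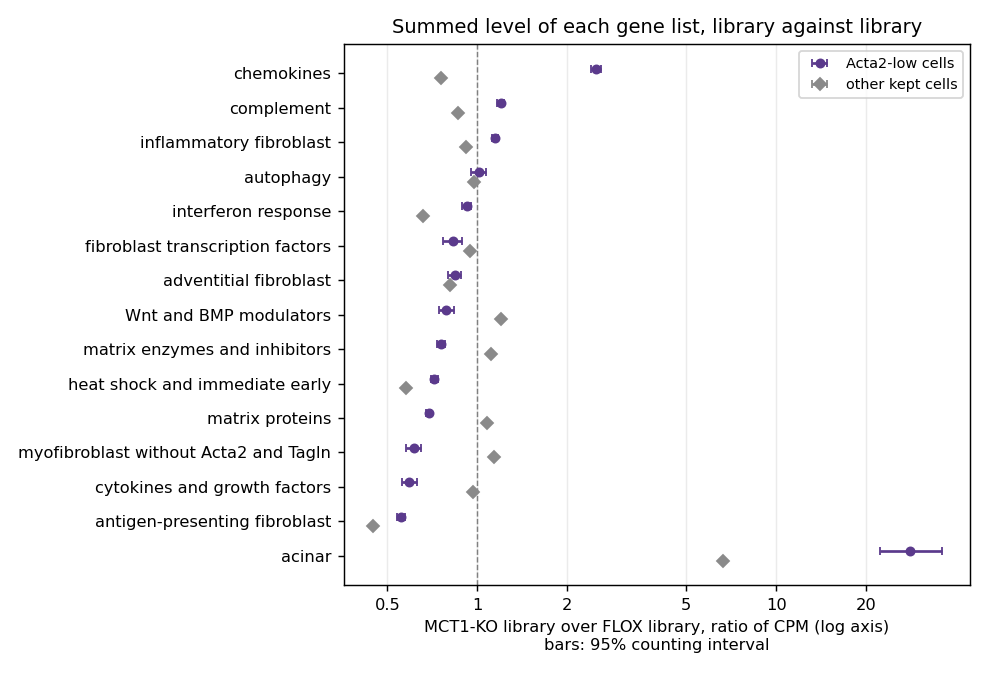
Ratio of the summed CPM of each gene list in the MCT1-KO over the FLOX library (horizontal log axis, 95% counting intervals), in Acta2-low cells (circles) and other kept cells (diamonds). In Acta2-low cells the chemokines sit at 2.50 and the matrix proteins at 0.688, against 0.755 and 1.08 in other kept cells. Not drawn are the chemokines without Cxcl13, with a ratio of 1.45 in Acta2-low cells and 0.746 in other kept cells.

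The promoters of the inflammatory list were read for the kappa B motif, the DNA element bound by NF-kB, because NF-kB is known to drive Il6 and Cxcl1. The letters GGG, any 2 bases and TTTCC were searched in a row on both strands from 250 bases before to 50 bases after the start of each RefSeq gene (GRCm38.p6). The motif was chosen after the values were seen. It was found in 535 of 32851 promoters (1.63%) and in 2 of the 12 list genes with an entry. These were the genes for which it was chosen, so that the share in the list is no comparison with all promoters. The windows below run 5′ to 3′ along the gene's strand with the motif in capitals. The Il6 window is chr5:30013050-30013099 and the Cxcl1 window chr5:90891154-90891203.
Il6: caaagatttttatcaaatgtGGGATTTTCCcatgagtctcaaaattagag
Cxcl1: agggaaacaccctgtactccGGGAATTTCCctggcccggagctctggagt
The motif begins 44 bases before the start of Il6 and 71 bases before that of Cxcl1, where a further match on the other strand begins 89 bases before the start. The Cxcl13 entry (chr5:95956689-95956988) held no match. These letters are a description of the sequence. In the libraries, Il6 was lower and Cxcl1 higher in the MCT1-KO library, with ratios of 0.561 and 2.12.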

How the data were processed

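Tumor cells of 1 FLOX and 1 MCT1-KO library were analysed from raw UMI counts per gene and barcode, deposited by the authors as matrices of 32285 genes. Per the labels and methods, the authors' counts came from SeekOneTools after trimming by Fastp. The methods name 10x Genomics or SeekOne DD kits without saying which was used. The methods and the submitters' processing notes name human GRCh38, whereas the deposited genes are mouse Ensembl IDs, so that the alignment build of the counts is unclear. The processing notes also name Seurat 4.0.0. Coordinates are those of GENCODE vM21 (GRCm38) for 32235 of the 32285 IDs. No cell annotation was used.

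The cells, gene lists and comparisons were chosen with earlier results of these data known. Counts were summed over the cells of a class and given as CPM with exact Poisson intervals, ratios of sums with exact conditional intervals and shares with Clopper-Pearson intervals (95%). Genes needed 50 UMIs to be counted past 2-fold. With 1 library per group no test was run. Genes were named from the lists, and by rank of their ratio (10 or 15 genes per direction, found in 10% of cells). Doublets were scored from 50 nearest neighbours and kept, with 4 of 82 and 8 of 187 Acta2-low cells among the 8% highest scores. T cells and macrophages were called from 2 or more T cell UMIs and 3 or more C1q UMIs. Each cell was in addition thinned to 1000 UMIs, with 0 cells lost, to read detection at equal depth. The intervals and the thinning were tested on simulated data. Intervals came from scipy 1.17.1, the doublet score from scikit-learn 1.9.0 and the figures from matplotlib 3.10.9, all under python 3.11.15. Other cell limits, doublet removal, subtraction of free RNA, equal weight per cell, thinning and other gene limits were tried as alternatives.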

Additional observations from a re-analysis of the deposited data

Results flagged for a closer look

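Ratios of Acta2-low to Acta2-high cells lay on opposite sides of 1 in the FLOX and the MCT1-KO library, each with its counting interval clear of 1, for 13 genes of the lists. The difference between the libraries was not tested. The share of such genes among all genes is not given here, so that nothing is read from the count. Saa3 had ratios of 5.56 and 0.762, Penk of 2.35 and 0.422, Sfrp2 of 1.32 and 0.440, Cfb of 1.64 and 0.748, Vegfa of 1.45 and 0.622 and Lyz2, a macrophage gene, of 1.28 and 0.633, all higher in Acta2-low cells of the FLOX library. Cxcl14 had ratios of 0.275 and 2.17, Irf1 of 0.749 and 1.65, Slpi of 0.722 and 1.49, Ccl2 of 0.872 and 1.26 and Col4a1 of 0.857 and 1.28, all higher in Acta2-low cells of the MCT1-KO library. The acinar genes Ctrb1, with 0.428 and 3.51, and Try5, with 0.364 and 3.10, went the same way. For Ctrb1 the ratios without the highest cell of each class were 1.12 and 1.49.

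Barcodes outside the limits on depth and gene number also met the other limits. From 500 to under 1000 UMIs there were 5 in the FLOX library and 5 in the MCT1-KO library, with the inflammatory list at 3035 and 14422 CPM and 0 Cxcl13 UMIs in both. Above 5000 genes there were 4 in the FLOX library, with the inflammatory list at 8367 CPM, and 1 in the MCT1-KO library.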

How the results depend on the processing

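No paired analysis was possible because each genotype had 1 library, which also left no replicate to leave out. The Acta2-low share was 0.791% and 1.70% with Acta2 and Tagln under 0.02%, and 1.43% in the FLOX library under 0.1%. In the MCT1-KO library it was 1.19% at a collagen share of 0.5%, 2.53% from 2000 UMIs and 1.64% from 500 UMIs. Slc16a1 between the libraries spanned 0.903 to 1.46 over 15 alternatives.

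The inflammatory list stayed higher and the myofibroblast list lower in Acta2-low than in Acta2-high cells under every alternative that gave a value. For the FLOX library, the inflammatory ratio was 2.37 without the 8% highest doublet scores, 2.56 and 2.10 with Acta2 and Tagln under 0.02% and 0.1%, 2.61 after thinning, 2.38 at 0.5% collagen, 2.48 with equal weight per cell, 2.01 with free RNA subtracted and 2.04 without an upper gene limit. The myofibroblast ratio was 0.279, 0.246, 0.281, 0.433, 0.442, 0.388, 0.232 and 0.366 in the same order, and 0.422 with 4 stromal UMIs. For the MCT1-KO library, the inflammatory ratio was 2.49 and 2.66 with Acta2 and Tagln under 0.02% and 0.1%, 2.62 after thinning, 2.01 at 0.5% collagen, 2.61 with equal weight, 2.52 with free RNA subtracted, 2.44 without an upper gene limit and 3.14 without cells holding a macrophage UMI. The myofibroblast ratio was 0.284 under 0.02%, 0.271 under 0.1%, 0.372 after thinning and 0.404 at 0.5% collagen. Leaving out macrophage UMIs kept 3 and 23 Acta2-low cells and 0 and 5 Acta2-high cells, so that the FLOX library gave no value and no genes were counted. The subtraction of free RNA removed 25.3% of UMIs from Acta2-low and 41.3% from Acta2-high cells of the FLOX library, 13.4% and 4.65% in the MCT1-KO library, and all UMIs (100%) of other FLOX cells, so that its estimate failed there and genes were not counted.

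The inflammatory list between the libraries reversed to 0.926 at 0.5% collagen and to 0.960 without macrophage UMIs; the cause was not tested. It was 1.11 without the highest doublet scores, 1.09 and 1.19 under 0.02% and 0.1%, 1.29 after thinning, 1.27 with equal weight and 1.02 with free RNA subtracted. Cxcl13 between the libraries stayed higher in the MCT1-KO library, at 21.5 under 0.02%, 8.13 without macrophage UMIs, 9.33 at 0.5% collagen and 16.1 with free RNA subtracted. Cxcl13 in Acta2-low over Acta2-high cells of the MCT1-KO library was 102 under 0.1%, 33.3 after thinning, 39.2 without macrophage UMIs, 33.7 at 0.5% collagen and 41.3 with equal weight, and of the FLOX library 145 under 0.1%, 38.4 with equal weight and 23.4 without an upper gene limit.

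Of the alternatives chosen after seeing the data, which include the chemokines without Cxcl13 and the Wnt and BMP modulators without Sfrp1, the list without C3 gave 1.85 and 1.78, and collagen cells of 5000 UMIs or more 2.18 for the inflammatory list in the MCT1-KO library and 113 for Cxcl13 over Acta2-high cells of the FLOX library. Without Acta2-high cells at 1% or more, the FLOX ratios were 2.15 for the inflammatory and 0.450 for the myofibroblast list. Without the 2 cells richest in Cxcl13, its ratio was 23.5 over Acta2-high cells of the FLOX library and 48.8 between the libraries.

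Counts of genes past a fold followed the limits. At 3-fold, 42 genes were higher and 22 lower in Acta2-low than in Acta2-high cells, 65 higher and 42 lower between the libraries, and 67 lower than in other kept cells. With 20 UMIs or more, 155 were lower than in Acta2-high cells, 462 higher and 517 lower between the libraries and 492 lower than in other kept cells. With 200 UMIs or more, 72 were higher and 29 lower than in Acta2-high cells, 62 higher and 61 lower between the libraries, and 378 higher and 42 lower than in other kept cells. At 0.5% collagen, 119 were higher between the libraries.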
